A study of Mus musculus with 50 samples.

Results

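A set of 7 vessel genes was followed in single hemogenic endothelial cells grown in culture: Nr2f2, Ephb4, Mrc1, Stab1, Stab2, Lyve1 and Emcn. They were chosen by name, as genes known from veins, lymphatic vessels and scavenging sinusoidal endothelium, and all 7 had a row among the 11879 gene rows of the table. Hemogenic endothelial cells are endothelial cells that can turn into blood cells. The cells here were induced ones (iHECs), made from C57BL/6 mouse embryonic stem cells that carried a doxycycline-inducible Runx1 cassette at the Rosa26 locus (iRunx1). Doxycycline (1 µg/mL) was given from day 6 of differentiation, and single cells were sorted at day 11 as CD31+CD41lowCD45-c-kit+CD201high. All 50 cells carried the cassette and received the drug, so the data hold no uninduced or embryonic group to set beside them. The labels name no culture, so the 50 cells were treated as 1 sample. No test between groups was possible, and all intervals below cover counting error over cells only.

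Endothelial cells of arteries, veins, lymphatic vessels and sinusoids use different genes. Nr2f2 (COUP-TFII) is a nuclear receptor that promotes vein identity and represses Notch signalling, and Ephb4 is the receptor tyrosine kinase of veins that binds ephrin B2 of arterial cells. Emcn (endomucin) is a sialomucin on the surface of venous and capillary endothelium. Stab1 and Stab2 (the stabilins), Mrc1 (the mannose receptor, CD206) and Lyve1 (a hyaluronan receptor) take up waste molecules from blood and lymph in the sinusoids of the liver and in lymphatic vessels. Mrc1, Stab1 and Lyve1 are also known from some tissue macrophages, and Lyve1, Stab2 and Emcn from embryonic endothelium.

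All 7 genes were protein-coding genes on GRCm38. Nr2f2 lay on chr7:70351944-70366735 (minus strand), Ephb4 on chr5:137350109-137378669 (plus), Mrc1 on chr2:14229392-14332057 (plus) and Stab1 on chr14:31139013-31168641 (minus). Stab2 lay on chr10:86841198-87008025 (minus), Lyve1 on chr7:110850607-110863239 (minus) and Emcn on chr3:137341067-137432185 (plus). A total of 5 of them overlapped other annotated genes. Of those, only Nt5dc2, on the strand opposite to Stab1, had a row of its own, and whether reads were assigned by strand is not given in the sources used here. In the RefSeq table (GRCm38.p6), 6 of the 7 genes had a promoter entry, and Lyve1 had none. The 250 bases before the start were searched on both strands for core letters of factors known in hemogenic endothelium: TGTGGT (RUNX), GGAAG (ETS), GATAA (GATA) and ACAAAG (SOX). The ETS letters were in 6 of 6 member windows, against 64.1% of all 32851 windows of that length. The RUNX letters were in 1 of 6, that of Stab2, starting 73 bases before the start, against 14% of all windows. The GATA and SOX letters were in 0 of 6, against 22.6% and 16.5%. No matches overlapped. A match of letters is a description and not a binding site. The windows of Mrc1, Stab2 and Emcn reached into the GENCODE gene by 22, 83 and 11 bases. The RUNX match of Stab2, and its ETS match starting 40 bases before the start, lay in that stretch. Both were therefore inside the GENCODE gene and not upstream of it. The other 3 are shown 5′ to 3′ on the gene's strand, since they hold the upstream sequence of a gene found in few cells (Nr2f2) and of a pair found in most cells (Ephb4 and Stab1), with the ETS letters of either strand in capitals.
Nr2f2, chr7:70366747-70366996, minus strand: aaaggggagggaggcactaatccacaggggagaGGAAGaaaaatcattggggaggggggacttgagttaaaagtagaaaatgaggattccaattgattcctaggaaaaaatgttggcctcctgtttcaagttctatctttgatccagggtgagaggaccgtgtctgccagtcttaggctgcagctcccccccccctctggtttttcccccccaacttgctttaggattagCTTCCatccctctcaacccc
Ephb4, chr5:137349859-137350108, plus strand: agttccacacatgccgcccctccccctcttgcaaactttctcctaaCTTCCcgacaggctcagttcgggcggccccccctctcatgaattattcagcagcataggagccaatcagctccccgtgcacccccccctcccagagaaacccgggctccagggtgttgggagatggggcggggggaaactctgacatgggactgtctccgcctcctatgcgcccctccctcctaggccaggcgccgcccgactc
Stab1, chr14:31168642-31168891, minus strand: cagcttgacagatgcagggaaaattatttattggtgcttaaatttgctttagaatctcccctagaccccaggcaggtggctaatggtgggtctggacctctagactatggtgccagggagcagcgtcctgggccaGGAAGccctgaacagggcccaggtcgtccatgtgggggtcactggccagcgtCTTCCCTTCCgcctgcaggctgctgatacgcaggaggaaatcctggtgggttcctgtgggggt

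The genes fell into 4 that most cells expressed and 3 that fewer cells expressed. Levels are in TPM, transcript abundances scaled by gene length and to a common total, which lets genes be compared. Expressed means above TPM 1 in that cell. Ephb4 and Emcn were each expressed in 45 of 50 cells, Stab1 in 43 and Lyve1 in 42. Nr2f2 was expressed in 19 cells, Stab2 in 16 and Mrc1 in 14. The 95% intervals of the 4 higher shares, 70.9% or above, did not overlap those of the 3 lower shares, 52.8% or below. The sets were drawn from these same shares in the same cells, so the intervals describe the split and do not test it. Within each of the 2 sets the intervals overlapped. Thus 4 of 7 members were expressed in at least 25 cells, where 53.2% of all rows were.

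**Figure D1:**
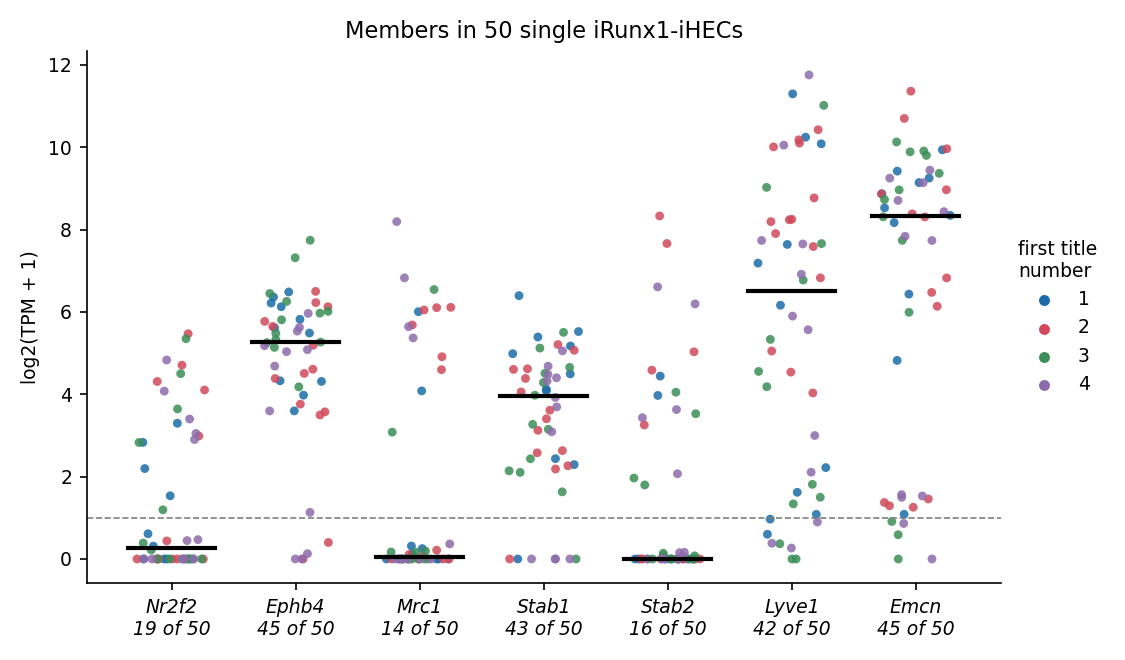
Level of each member in each of the 50 cells, as log2(TPM + 1) on the y axis, with points coloured by the first number of the cell title, a black line at the median and a dashed line at TPM 1. Ephb4, Stab1, Lyve1 and Emcn have medians of 37.4, 14.5, 89.5 and 320 TPM, while the medians of Nr2f2, Mrc1 and Stab2 lie below TPM 1.

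Of the vein genes, the receptor Ephb4 was found in nearly all cells and the nuclear receptor Nr2f2 in fewer. Ephb4 ran from listed at 0 in 3 cells, over a median of 37.4 TPM, to 213 TPM in cell 3-13 (cells are named by the 2 numbers of their titles). It was above TPM 10 in 44 cells, and the next lower value was 1.19 TPM, so there was little between presence and absence. Its share was 90% (95% interval 78.2% to 96.7%). Nr2f2 had a median of 0.202 TPM and was listed at 0 in 24 cells. Its 3 highest values were 43.4 TPM in cell 2-6, 39.8 in cell 3-5 and 27.5 in cell 4-8. Its share of 38% (24.7% to 52.8%) fell to 32% at TPM 5 and 18% at TPM 10, and no cell reached TPM 100. Among the cells that expressed it, the median was 9.55 TPM, against 43.7 TPM for Ephb4. Both were expressed in 17 cells, so 89.5% of the Nr2f2 cells had Ephb4, as had 90.3% of the cells without Nr2f2. The shares were close, so Ephb4 was about as frequent with Nr2f2 as without it. Cells 2-13, 4-6 and 4-7 had neither.

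Ephb4 and its arterial ligand Efnb2 (ephrin B2) stood side by side in a cell about as often as their single shares give. Efnb2 was expressed in 35 of 50 cells, and its median was 13.4 TPM. Both were expressed in 32 cells, Ephb4 alone in 13, Efnb2 alone in 3 and neither in 2. Efnb2 was in 71.1% of Ephb4 cells and 70% of all cells, and Ephb4 in 91.4% of Efnb2 cells and 90% of all cells. Over the 50 cells, the rank correlation of their levels was 0.06 (Spearman's rho). Nr2f2 was found with Efnb2 in 13 of its 19 cells, and rho was 0.01. Most cells thus held both the venous receptor and the arterial ligand, with no relation between their levels beyond these small values.

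Emcn had the highest median of the 7 members and was either high or close to absent. It was listed at 0 in 2 cells, had a median of 320 TPM and reached 2633 TPM in cell 2-2, 1663 in cell 2-11 and 1119 in cell 3-9. A total of 37 cells had 27.3 TPM or more and 13 cells had 1.95 TPM or less, with no cell between. Of those 13 cells, 8 lay between TPM 1 and 2 and were counted as expressing it, so its share of 90% fell to 74% at a level of TPM 5 or 10. Only 4.22% of all rows had a higher median. The SD of log2(TPM + 1) was 3.57, and 21 of the 9104 rows expressed in at least 10 cells had a larger one.

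Of the paired stabilins, giant scavenger receptors of sinusoidal endothelium, Stab1 was common and even, and Stab2 was rare and uneven. Stab1 had a median of 14.5 TPM, was listed at 0 in 7 cells and reached 83.2 TPM in cell 1-9. Its share was 86% (73.3% to 94.2%), and no cell lay above 0 and at or below TPM 1. The share fell to 68% at TPM 5 and 56% at TPM 10. Stab2 was listed at 0 in 28 cells and had values up to 0.119 TPM in 6 more. In the remaining 16 cells, or 32% (19.5% to 46.7%), it was 2.48 TPM or more, and it reached 321 TPM in cell 2-12, 202 in cell 2-16 and 96.6 in cell 4-13. The 5 highest cells held 85.4% of all Stab2 TPM, against 30% for Stab1. Its 3 highest values exceeded every value of Stab1, although fewer cells had it. Both stabilins were expressed in 14 cells, Stab1 alone in 29, Stab2 alone in cells 3-13 and 4-13, and neither in 5. Both were above TPM 5 in 7 cells and above TPM 10 in 5 cells. At TPM 1, Stab1 was thus found in 87.5% of cells with Stab2 and in 85.3% of cells without it. Their levels had a rho of -0.28, the lowest of all pairs, which ranged from -0.79 to 0.27 within the 4 first title numbers and was -0.15 without number 3.

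Mrc1, an endocytic receptor for mannosylated glycoproteins and collagen peptides, was expressed in the fewest cells at TPM 1. Above TPM 0 or 5 Stab2 was in fewer cells, and above TPM 10 Nr2f2 and Stab2 were. It was listed at 0 in 25 cells, and in 11 cells it was above 0 but no higher than 0.288 TPM. In the other 14 cells, or 28% (16.2% to 42.5%), it was 7.46 TPM or more. Present and absent cells were therefore 26 times apart, with no cell between. The highest values were 292 TPM in cell 4-1, 113 in cell 4-12 and 92.3 in cell 3-14, and the median of the 14 cells was 56.8 TPM. Among expressing cells, that median lay below those of Emcn (345 TPM) and Lyve1 (168 TPM), and above those of Ephb4 (43.7 TPM), Stab1 (16.4 TPM), Stab2 (15.1 TPM) and Nr2f2 (9.55 TPM).

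Lyve1 covered the widest range of the 7 members. It was listed at 0 in cells 3-1 and 3-3, had a median of 89.5 TPM and reached 3459 TPM in cell 4-4, 2516 in cell 1-3 and 2073 in cell 3-14. It was above TPM 100 in 25 cells and above TPM 1000 in 10 cells. Its share was 84% (70.9% to 92.8%). The SD of log2(TPM + 1) was 3.67, and 13 of 9104 rows had a larger one. Unlike Mrc1 and Stab2, it had no empty stretch between low and high cells: 8 cells lay between TPM 1 and 10, so the share fell to 70% at TPM 5.

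The first title number, whose meaning the labels do not give, takes the values 1 to 4. Across these 4 sets of 11 to 14 cells, the share of cells with Nr2f2 stayed between 35.7% and 41.7%. Mrc1 ranged from 15.4% to 42.9% and Stab2 from 18.2% to 41.7%. Lyve1 and Emcn were expressed in 14 of 14 cells of number 2, and in 10 of 13 cells of number 3. Above TPM 5, Emcn was in 10 of 14 and 10 of 13 of them, so that difference was gone, while Lyve1 was in 14 of 14 and 7 of 13. Ephb4 was expressed in all cells of numbers 1 and 3 and in 9 of 12 cells of number 4, and Stab1 in 8 of 12 cells of number 4 and at least 90.9% elsewhere. Number 4 includes the 2 cells with the fewest members, 4-6 and 4-7.

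Most cells carried several members at once. The count was 5 members in 20 cells, 4 in 14 cells, 3 in 7 cells and 6 in 5 cells. Cells 2-12 and 4-3 expressed all 7. Cell 2-12 had Nr2f2 at 18.8 TPM, Ephb4 at 21.7, Mrc1 at 67.8, Stab1 at 3.804, Stab2 at 321, Lyve1 at 301 and Emcn at 87.9. Cell 4-3 had Nr2f2 at 6.47 TPM, Ephb4 at 61.4, Mrc1 at 40.3, Stab1 at 21.3, Stab2 at 72.3, Lyve1 at 6.99 and Emcn at 345. The order of the levels thus differed, with Stab2 first in one cell and Emcn first in the other. Cell 4-6, with Lyve1 at 212 TPM and Emcn at 1.95 TPM, had 2, and cell 4-7 had only Stab1, at 20.1 TPM. No cell lacked all members, and 96% of cells had 3 or more. The combination of Ephb4, Stab1, Lyve1 and Emcn was found in 32 cells (64%, 95% interval 49.2% to 77.1%), and in 12 cells when each had to be above TPM 10. The summed TPM of the members ran from 21.4 in cell 4-7, over a median of 676, to 4187 in cell 4-4. Lyve1 and Emcn together held a median of 88.4% of it. Emcn was the highest member in 28 cells, Lyve1 in 15, Ephb4 in 3, Stab2 in 2, and Mrc1 and Stab1 in 1 each.

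**Figure D2:**
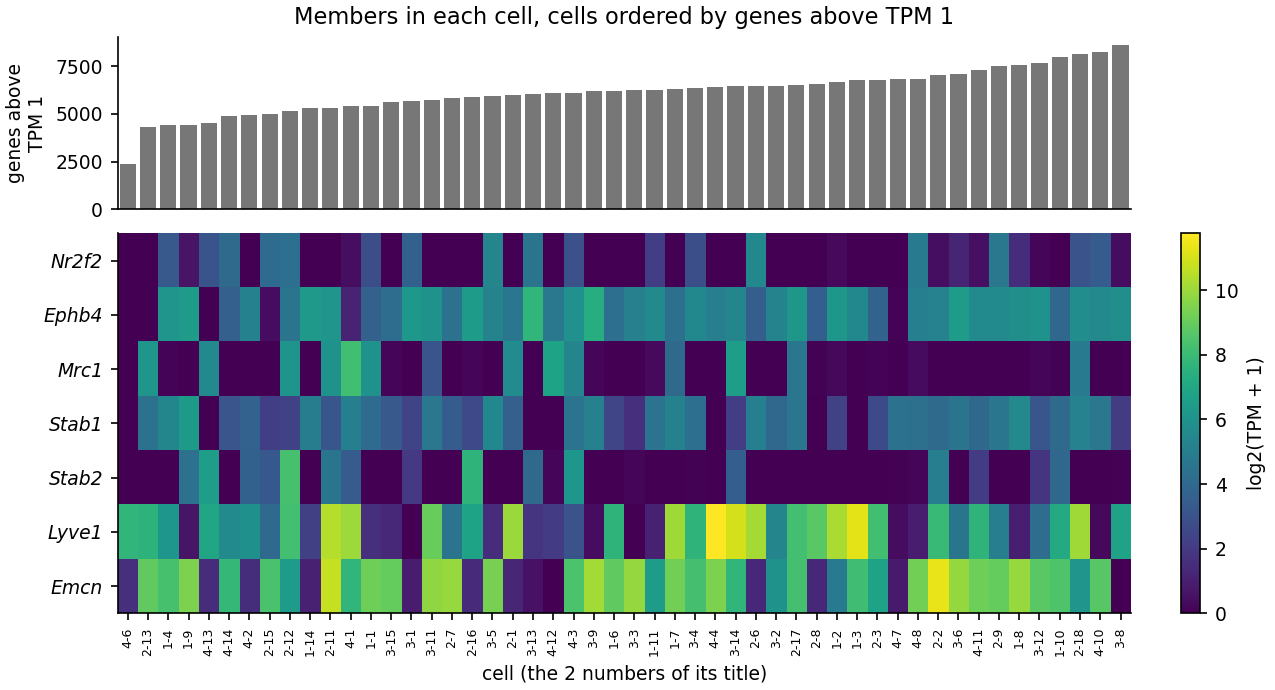
Level of the 7 members (rows, log2(TPM + 1), dark to bright) in each of the 50 cells (columns), ordered from the fewest to the most genes above TPM 1, which the upper bars give. The bars rise from 2398 genes in cell 4-6 to 8612 in cell 3-8, and Mrc1 is bright in 14 columns, of which 1 is among the 16 cells with the most genes.

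Every cell with Mrc1 also had Lyve1. Of the 14 Mrc1 cells, 14 expressed Lyve1, while 28 of the 36 cells without Mrc1 did, and 0 of the 8 cells without Lyve1 had Mrc1. At a level of TPM 10 the overlap was not complete, with Lyve1 in 10 of 13 Mrc1 cells. Lyve1 was in 84% of all cells, and no chance test was made on this overlap. The levels had a rho of 0.30, with a range of 0.05 to 0.42 within the 4 first title numbers. Mrc1 and Stab2 were both expressed in 6 cells, and 26 cells had neither. Cells 2-11, 2-12, 3-14, 4-1 and 4-3 expressed the 4 uptake receptors Mrc1, Stab1, Stab2 and Lyve1 together. Outside the 2 cells with all members, Lyve1 was the highest of the 4 receptors in these cells, at 1375 TPM in cell 2-11, 2073 in cell 3-14 and 1061 in cell 4-1. Mrc1 followed at 65.1, 92.3 and 292 TPM, while Stab2 stood at 23.03, 10.54 and 9.79 TPM. Stab1 was the lowest in cells 2-11 and 3-14, at 7.72 and 3.41 TPM, and stood at 32.2 TPM in cell 4-1.

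The levels of the members were only weakly related to each other. Of 21 pairs, 10 had a positive and 11 a negative rho over the 50 cells, with a median of -0.03. The highest were Stab1 with Emcn at 0.353 and Mrc1 with Lyve1 at 0.299, or 0.349 and 0.319 with the number of genes above TPM 1 held constant by rank. For Stab1 with Emcn it was positive within each of the 4 first title numbers (0.05 to 0.57), but fell to 0.223 without number 3 and 0.292 without cells under 5000 genes. For Mrc1 with Lyve1 it ranged from 0.170 without number 2 to 0.422 without number 4. Stab1 was expressed in 40 of the 45 Emcn cells and in 43 of all 50. Nr2f2 and Lyve1 had a rho of -0.27, negative within all 4 numbers (-0.57 to -0.03), and Ephb4 with Stab1 had 0.26, positive within all 4, but 0.11 without cells under 5000 genes. Values of 1 cell share its amplification and its TPM total, and the 21 pairs share genes. With 50 cells such weak values are descriptions only.

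**Figure D3:**
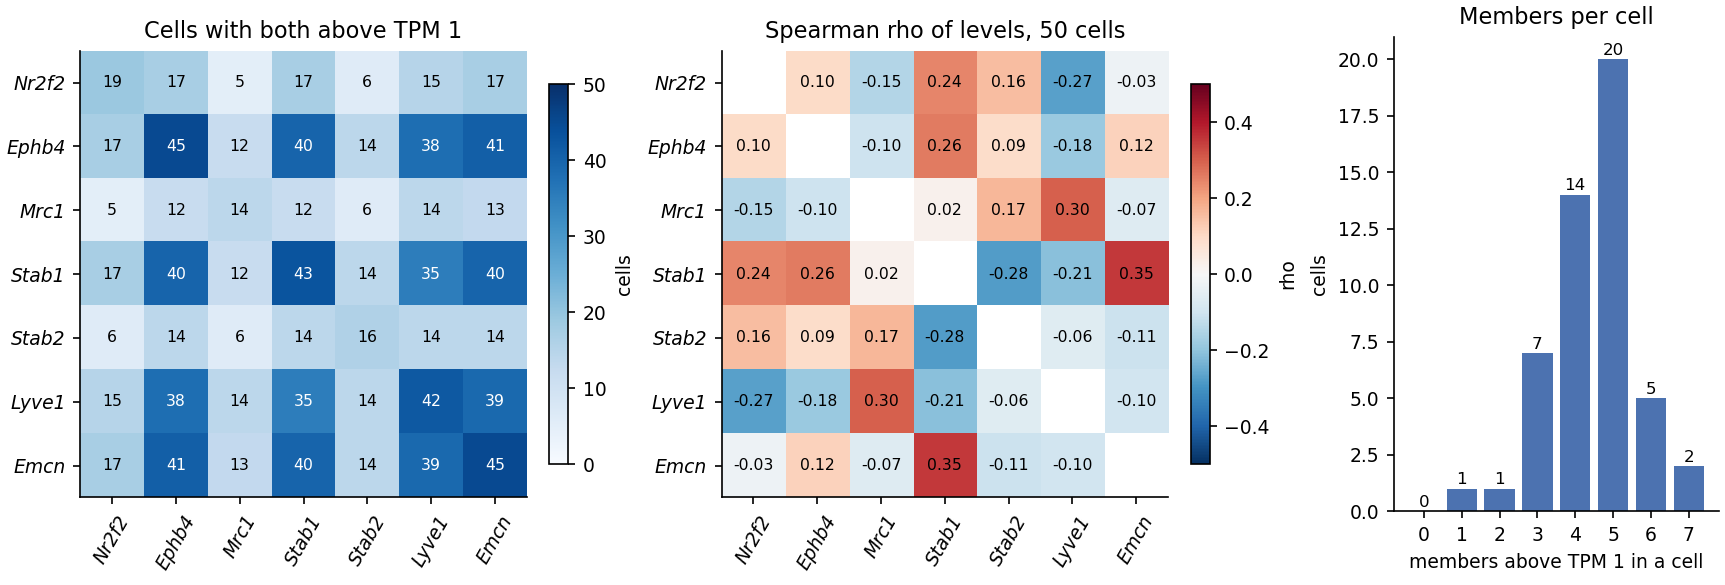
Left, number of cells (of 50) in which both genes of a pair are above TPM 1, with each gene's own count on the diagonal. Middle, Spearman's rho of their levels over the 50 cells, from -0.28 (Stab1 and Stab2) to 0.35 (Stab1 and Emcn). Right, number of cells by how many members they express, with 5 members in 20 cells.

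The number of genes above TPM 1 in a cell stood in for the richness of its library, since TPM keeps no depth and the depth of each cell is unknown. Without the members it ran from 2398 in cell 4-6, with 4322 in the next cell, over a median of 6220 to 8612. The number of members was not higher in richer cells. Against the number of genes its rho was -0.13, and the median was 5 members in the 17 cells with the fewest genes, 5 in the 17 middle cells and 4 in the 16 cells with the most. Counted above TPM 0 or 10, that rho was 0.084 or 0.002, so its direction is not firm. For the single members, rho was 0.20 for Ephb4, 0.09 for Stab1, 0.07 for Emcn, 0.06 for Lyve1, 0.03 for Nr2f2, -0.15 for Stab2 and -0.21 for Mrc1. Thus 0 of 7 members reached 0.3, where 27.4% of 9104 rows did. Ephb4 had 0.38 without first title number 1, which would make it 1 of 7, and 0.03 without number 4. Nr2f2, Stab1, Lyve1 and Emcn changed sign when 1 number was left out. The median was 0.06 over the members and 0.21 over those rows.

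Mrc1 and Stab2 had their higher counts in cells with fewer genes. Mrc1 was expressed in 7 of the 17 cells with the fewest genes, 6 of the 17 middle cells and 1 of the 16 with the most. Stab2 was expressed in 8, 4 and 4 of them, and Nr2f2 in 7, 6 and 6. Among all 9104 rows, 97.9% had a higher rho with the number of genes than Mrc1 and 96.3% a higher one than Stab2. Mrc1 had a negative rho within each of the 4 first title numbers (-0.38 to -0.04), and Stab2 ranged from -0.36 to 0.11. Ephb4 was absent from 5 cells, whose median number of genes was 4523, against 6238 in the cells with it. Its rho ranged from -0.40 to 0.65 within the title numbers. The part of library richness in these levels was not tested.

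**Figure D4:**
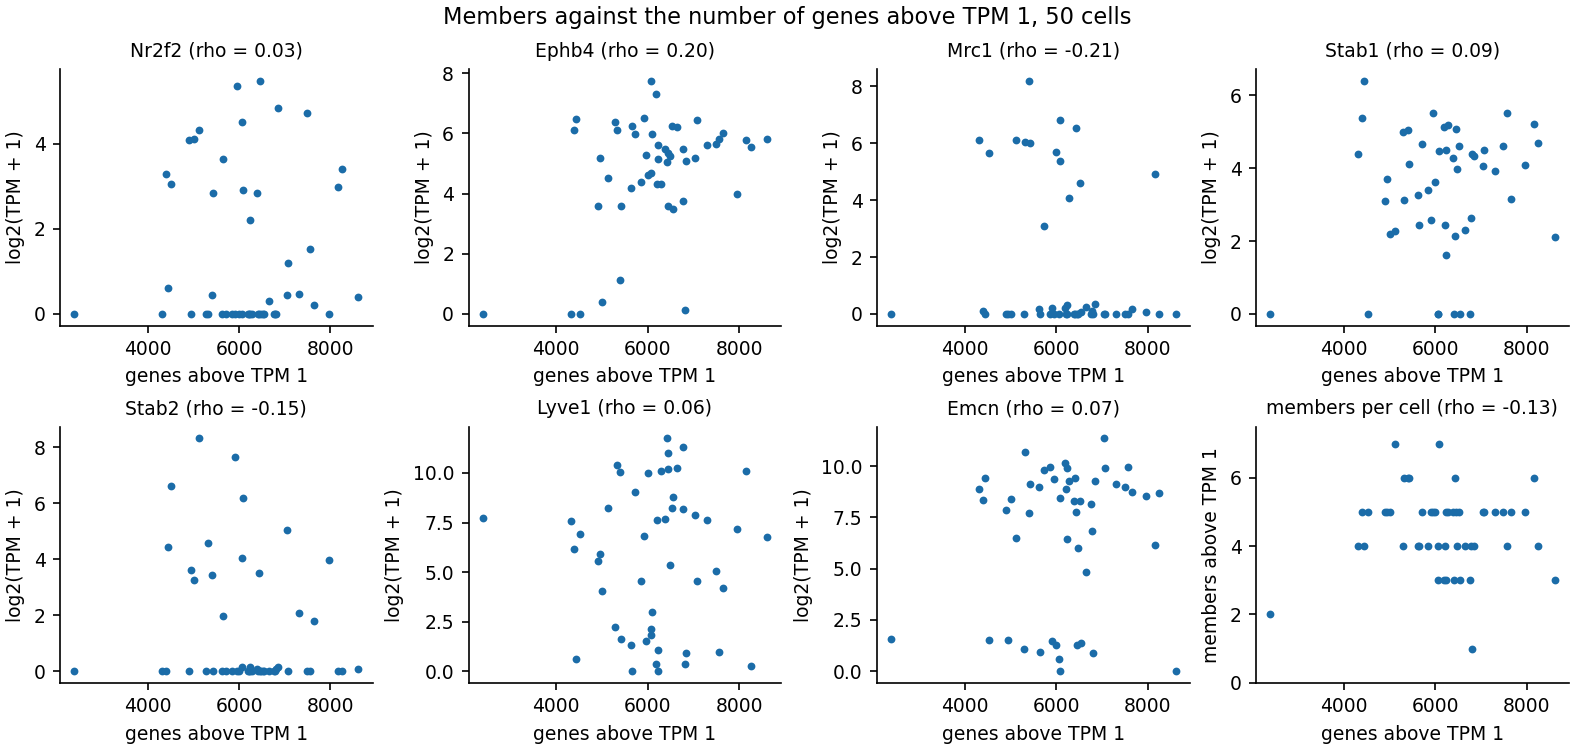
Level of each member (y axis, log2(TPM + 1)) and, lower right, the number of members above TPM 1, against the number of genes above TPM 1 in the same cell (x axis), 1 point for each of 50 cells. Mrc1 (rho -0.21) and Stab2 (rho -0.15) have their high points mostly at the left and centre. The number of members shows no clear rise or fall (rho -0.13, and 0.084 when counted above TPM 0).

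The row whose pattern over the 50 cells was most like that of Mrc1 was Gpr182, a chemokine-scavenging receptor of sinusoidal and lymphatic endothelium. Of 9103 other rows expressed in at least 10 cells, it had the highest rho, 0.58. Gpr182 was expressed in 34 cells, which included 14 of 14 Mrc1 cells and 20 of the 36 others, at a median of 29.5 TPM over all cells and a maximum of 517 TPM. The rank correlation was 0.50 to 0.75 within the 4 first title numbers. With the number of genes held constant it was 0.61. As the highest of 9103 values it was picked by its size, and it is given as a description.

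For the other members the most similar rows were not other members. They were Ralgds, an exchange factor for Ral GTPases, for Emcn (rho 0.61), Polr2c, an RNA polymerase II subunit, for Ephb4 (0.62), and Fam118b for Stab1 (0.52). Ylpm1 was most like Nr2f2 (0.52), Marcks, a protein kinase C substrate, most like Stab2 (0.55) and 3110062M04Rik most like Lyve1 (0.53). Vwf, the clotting factor carrier of endothelium, stood as the third row for Stab1 at 0.51, and was expressed in 32 of the 43 Stab1 cells and in 1 of the other 7. Among the rows ranked by likeness to each member, the closest fellow member stood at place 102 for Stab1 (Emcn), 103 for Emcn (Stab1), 107 for Mrc1 (Lyve1) and 127 for Lyve1 (Mrc1). It stood at 511 for Nr2f2, 997 for Ephb4 and 998 for Stab2.

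Of 13 other vein-related rows, 7 were expressed in at least 25 cells, a share close to the 53.2% of all rows. Plvap, the diaphragm protein of fenestrated vessels, was in 50 cells with a median of 714 TPM. Smarca4, a chromatin remodeller, was in 47, Flt4 (VEGF receptor 3) in 44 and Aplnr (the apelin receptor) in 38. Flt4 is also counted in the lymphatic list below, as is Nrp2, which was in 36 cells. Nr2f1, the closest relative of Nr2f2, was in 2 cells, and Ephb3 was listed at 0 in all 50, which allows a share of up to 6% by 3 counts of 50, or 7.11% by the exact interval.

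Of 10 other lymphatic rows, 6 were expressed in at least 25 cells, again near the share of all rows, and the master regulator of lymphatic identity was not among them. Prox1 was above TPM 1 in cell 4-2 alone, at 1.58 TPM, and Foxc2 was in 4 cells. Of the 42 Lyve1 cells, 38 had Flt4, 19 had Mmrn1 and 1 had Prox1. The rows found most often, Mmrn2 (49 cells), Sox18 (48) and Cldn5 (48), are also known from endothelium outside lymphatic vessels. The lymphatic genes Pdpn, Ccl21a, Reln, Thy1 and Nts were not analysed here.

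Of 22 other sinusoidal and scavenger rows, 16 were expressed in at least 25 cells. Without 6 genes of endocytosis and lysosomes that most cell types use (Ctsl, Lamp1, Lamp2, Rab5a, Rab7 and Ap2b1), it was 10 of 16. The lysosomal genes Ctsl, Lamp1 and Lamp2 were in all 50. The scavenger receptors Scarb1 and Scarf1 were each in 48 cells, at medians of 150 and 112 TPM, and Oit3, known from liver sinusoids, was in 48 at 203 TPM. Clec1b was in 32 cells. Fcgr2b, a receptor of mature liver sinusoids, was in 4 cells, Cd36 in 2, and the macrophage scavenger receptor Msr1 was listed at 0 in all 50.

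Of 21 arterial rows, 11 were expressed in at least 25 cells, among them Hes1 (48 cells), Acvrl1 (45) and Notch1 (42). Other rows of the list lay at all shares, with Sox17 in 36 cells, Efnb2 in 35, Gja4 in 33, Jag2 in 30, Dll4 in 22, Hey1 in 14, Hey2 in 6, Gja5 and Bmx in 1 each and Dll1 in 0. Of 18 rows known to act with Nr2f2, ephrins, hyaluronan or collagen receptors, 10 were. Efna1, an ephrin ligand, was in 49 cells and Hyal2, which breaks down hyaluronan, in 45. Cd44, the other well-known hyaluronan receptor, was in 25 cells, and 20 of these also had Lyve1, which was in 84% of all cells. Shares of all these lists can be read against the 53.2% of all rows found in at least 25 cells.

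**Figure D5:**
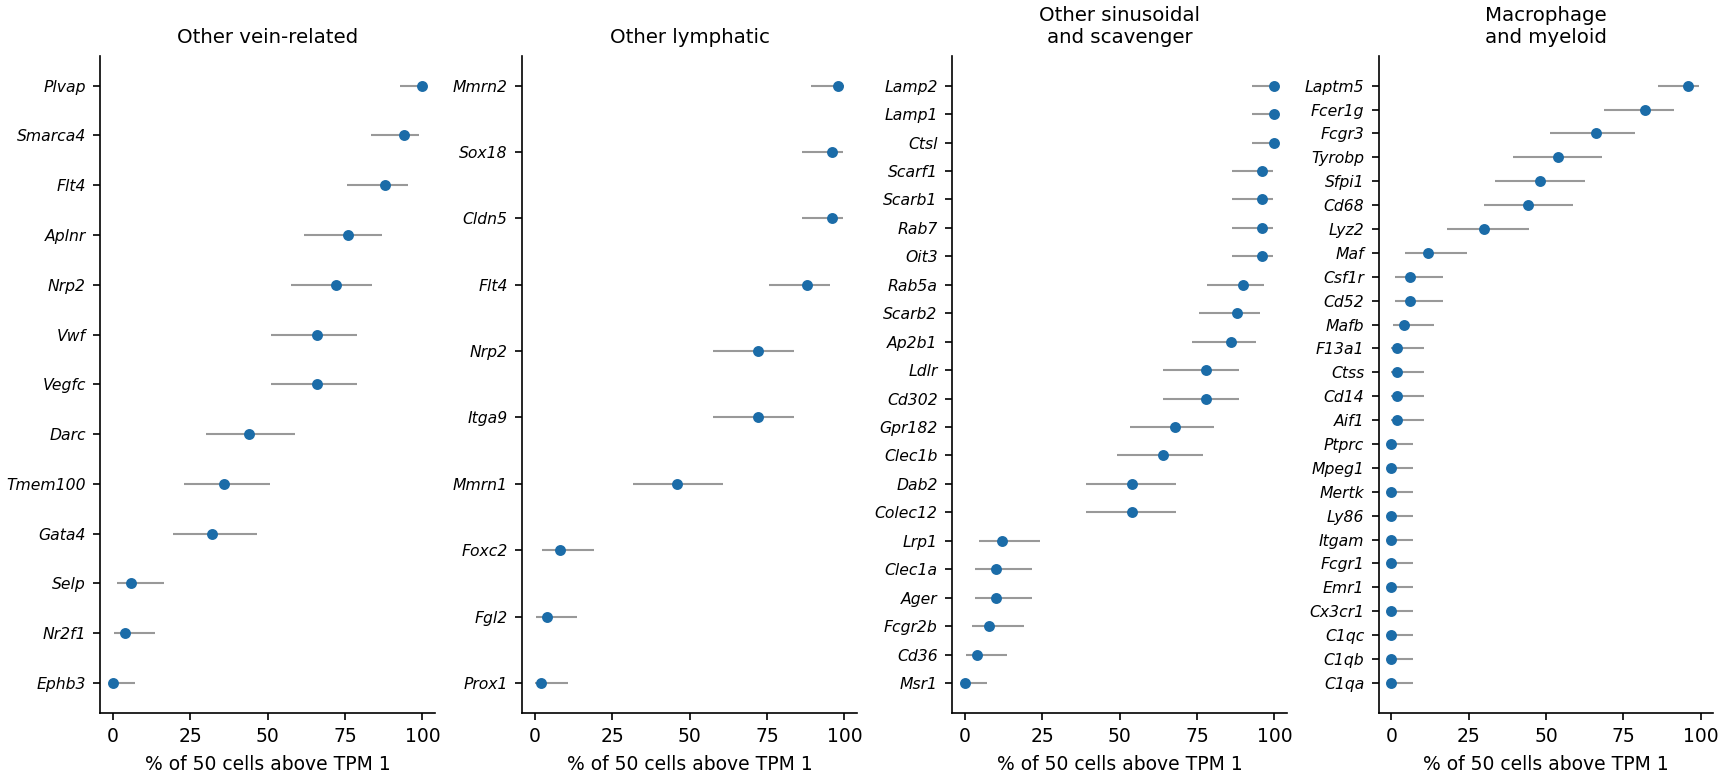
Share of the 50 cells above TPM 1 (x axis, percent) for genes of 4 related lists, with exact 95% intervals as bars that cover counting error over cells only. Plvap, Ctsl, Lamp1 and Lamp2 are at 100%, while Ephb3, Msr1 and 11 of 26 macrophage and myeloid rows are at 0%.

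The cells matched the endothelial label. All 20 general endothelial rows, Emcn included, were expressed in at least 25 cells, and 11 of them in all 50, among them Pecam1, Cdh5 and Tie1. Pecam1 encodes CD31, for which the cells were sorted, so its count gives no separate support. Of 6 mesenchymal and 7 erythroid and megakaryocyte rows, 0 were expressed in at least 25 cells. Among the latter, Pf4 was in 17 cells at up to 181 TPM and Epor in 8. Itga2b (CD41), a gene of the sort and not of that list, was in 40. Because Mrc1, Stab1 and Lyve1 are also macrophage genes, 26 macrophage and myeloid rows were read beside them. Of these, 4 were expressed in at least 25 cells: Laptm5 in 48, Fcer1g in 41, Fcgr3 in 33 and Tyrobp in 27. Sfpi1, the older name of the gene for the myeloid factor PU.1, was in 24 cells with up to 3843 TPM, Cd68 in 22 and Lyz2 in 15. The defining genes Ptprc (CD45), Emr1 (F4/80), C1qa, C1qb, C1qc, Cx3cr1, Fcgr1, Itgam and Mertk were listed at 0 in all 50 cells, and Csf1r was in 3. The sort itself took CD45- cells. The summed TPM of the list ran from 25.2 to 5091 (median 323) in the 14 Mrc1 cells and from 35 to 6141 (median 778) in the 36 others, with a rho of -0.31 between the sum and Mrc1. For Stab1 and Lyve1 that rho was 0.12 and 0.10. A single row of the list, Cd68, had a rho of 0.40 with Stab1, above that of every member pair. Of the 22 Cd68 cells, 21 had Stab1, as had 43 of all 50 cells. Cd68 was picked by the size of this value, and other rows had negative values of similar size. Fcgr3 had -0.38 with Stab2 and -0.36 with Mrc1. The part of myeloid genes in these levels was not tested. For Nr2f2, Ephb4, Stab2 and Emcn, the rho with the summed list was -0.21, -0.15, -0.26 and -0.23.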

How the data were processed

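Single iHECs were lysed, and their cDNA was amplified with a whole-transcriptome kit; no unique molecular identifiers were named. The authors aligned reads to mm10 with HISAT2 (version 2.1.0) and deposited TPM estimated by StringTie (version 1.3.4); SAMtools 0.1.19 and bcl2fastq stand in the submitters' processing notes. The series text and the methods name different sequencers, and how the 11879 rows were selected is not given in the sources used here. Columns summed to 942975 to 970894 TPM.

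A gene was expressed in a cell above TPM 1. Shares have exact Clopper-Pearson 95% intervals, and a count of 0 allows 3 of 50 cells, or 6%. Spearman's rho, and its partial form given the number of genes above TPM 1, describe cells of 1 sample, with no p-value. Log values are log2(TPM + 1). Rows in at least 10 cells entered correlations. Named were the members, the 3 rows most like each (the text gives those it describes) and genes of the lists. The plan was up to 6 list genes in at least 25 cells, by share, but some of these were passed over. Other list genes were named after their values were seen. The members and lists were chosen with earlier results of these data known. All 50 cells were kept, without clustering or doublet calling. The correlation code was tested on simulated data. Alternatives tried were levels of TPM 0, 5 and 10, a pseudocount of 0.1, leaving out each first title number or cells under 5000 genes, other levels for counting genes, and TPM rescaled without 84 ribosomal protein rows. Positions are from GENCODE M21 (GRCm38, which mm10 names). Python 3.11.15, numpy 2.4.6, pandas 2.3.3, scipy 1.17.1 and matplotlib 3.10.9 were used.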

Additional observations from a re-analysis of the deposited data

How the results depend on the processing

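The shares of 5 of the 7 members left their exact interval at some other level for expression, while Ephb4 (88% to 94%) and Stab2 did not. Above TPM 0, Mrc1 rose to 50% of cells and Lyve1 to 96%. Above TPM 5, Stab1 fell to 68%, Lyve1 to 70% and Emcn to 74%, and above TPM 10, Nr2f2 fell to 18%, Stab1 to 56%, Lyve1 to 68% and Emcn to 74%. The median number of members per cell, 5 as reported, was 4 above TPM 5 and above TPM 10 and 4 without first title number 2. Cells with 3 or more members, 96% as reported, were 84% above TPM 5, 82% above TPM 10 and 100% without first title number 4. The rho of members per cell with the number of genes, -0.13 as reported, changed sign to 0.084 above TPM 0 and 0.002 above TPM 10, so its direction is not firm. The 7 shares stayed within their exact intervals when any first title number, the 7 cells under 5000 genes or the ribosomal protein rows were left out. The correlations with the number of genes were not stable to leaving out 1 title number. They ranged from 0.028 to 0.382 for Ephb4, and changed sign for Nr2f2 (-0.090 to 0.121), Stab1 (-0.067 to 0.281), Lyve1 (-0.051 to 0.252) and Emcn (-0.095 to 0.163). Those of Mrc1 (-0.247 to -0.150) and Stab2 (-0.211 to -0.042) stayed negative. Of the 21 shares of cells with both genes of a pair, 11 left their exact interval above TPM 0, 7 above TPM 5 and 15 above TPM 10. With 1 title number left out, Mrc1 ranged from 22.2% to 32.4% and Lyve1 from 77.8% to 86.8%. The rho of Mrc1 with Gpr182 was 0.58 without the cells under 5000 genes and 0.53 to 0.61 with 1 title number left out, an alternative chosen after seeing the data. With a pseudocount of 0.1 the mean log2 level moved from 1.402 to -0.49 for Nr2f2, from 1.625 to -0.55 for Mrc1 and from 1.425 to -0.79 for Stab2, the members with the most cells at 0. No paired analysis was possible because the labels put all cells into 1 group. Depth is unknown, and a value listed at 0 may be a transcript that was missed.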

Other observations

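Runx1, the induced factor, had a negative rank correlation over the 50 cells with each of the 7 members, all of them small. Of 9103 other rows expressed in at least 10 cells, 32.1% had a negative value, and their median was 0.07. The correlation was -0.12 for Nr2f2, -0.04 for Ephb4, -0.19 for Mrc1, -0.17 for Stab1, -0.08 for Stab2, -0.16 for Lyve1 and -0.09 for Emcn. None kept 1 sign within all 4 first title numbers, where the highest values were 0.26, 0.21, 0.26, 0.20, 0.51, 0.15 and 0.04 in the same order. The values per gene do not separate the inserted cassette from the endogenous gene.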
